A study of Mus musculus with 4 samples.

Results

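The comparison described here is the lung array labelled Pla2g3-/- control against the lung array labelled Pla2g3+/+ control, 2 of the 4 arrays of the study. Both arrays were chosen by their labels and not by any measured value. The study asked how deletion of group III secreted phospholipase A2 affects the mouse lung before and after allergic challenge with ovalbumin. Each array received RNA labelled as lung and pooled from 4 samples, of which 200 ng was labelled with Cy3 on Agilent 1-colour arrays. The 2 other arrays carry the same genotype labels after challenge. Their mice received 10 µg ovalbumin with 1.3 mg aluminium hydroxide in 0.2 ml saline on days 0 and 14, breathed 1% ovalbumin aerosol for 30 min on days 26, 27 and 28, and were killed 48 h later. The labels attach this protocol to the controls as well, so the treatment of the control mice is unknown here. Strain, age, sex and the deleted part of the gene are not stated either. All mice labelled Pla2g3-/- carry the same deletion label and no other allele is named. With 1 pool a side there was no replicate and no test, so every difference below is a difference between 2 pools.

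Secreted phospholipases A2 cut the fatty acid from the middle position of phospholipids outside the cell, releasing arachidonic acid and lysophospholipids. Other enzymes turn these into prostaglandins, leukotrienes, platelet-activating factor and lysophosphatidic acid, which act on smooth muscle, vessels and leukocytes of the airway. The group III enzyme encoded by Pla2g3 resembles the phospholipase of bee venom and is known for its part in mast cell maturation.

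The probes behind the largest differences are shown first, since in several cases the identity of the probe decides what a value means. Each probe has 60 bases, of which the first 30 are printed 5′ to 3′ in lower case. Coordinates are those of the files, on mm9. Pla2g3 has 2 probes, at chr11:3394109-3394168 (base 2562 of the transcript) and chr11:3393127-3393186 (base 1580):
Pla2g3, base 2562: aggagtaaatgaattaatcaacacacatac
Pla2g3, base 1580: ctgcaagtaacccaggcaatctggagacgc
Trim12a, which gave the largest decrease, has 2 probes at chr7:111448499-111448558 and chr7:111425209-111425268:
Trim12a, base 1377: catagctaagggctgtcacttacatcaggt
Trim12a, base 739: aattgcagaagctgaggcaagagaaggaag
Gdpd3, the largest increase of the deposited value table among ranked genes above background on both controls, has 1 probe, for which the files give no position:
Gdpd3, base 782: ctgtggatggatgaaccaactgtcggctac
The alpha-1-antitrypsin genes of chromosome 12 are near copies of each other, and the probes that represented 3 of them read nearly the same stretch:
Serpina1a, base 1565: taaaatgtcatccttccttctgaattgggt
Serpina1c, base 1335: tgaccaccctaagatgtcatccttccttct
Serpina1e, base 1283: atgaccaccctaagaagtcatccttccttc
Over the 51 bases where the probes of Serpina1a and Serpina1c overlap they differed at 1 base, and over 59 bases those of Serpina1c and Serpina1e differed at 10. Signal from one of these genes on the probe of another was not separated. Rag1, which led the increases of the scanner files by the same limits, has 2 probes at chr2:101481051-101481110 and chr2:101478813-101478872:
Rag1, base 3967: ggtgtcataaatttttcaataatgaagtta
Rag1, base 6205: agttgtttgatgcatgtgtatgccattaga

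The deposit has 2 sources, the scanner files and a value table. They were kept apart because they do not hold the same measurements. Across 39410 probes, the scanner array of the WT-labelled control correlated at 0.919 with the table column of its own name and at 0.921 with the KO-labelled control column. The scanner array of the KO-labelled control correlated at 0.920 with its own column and at 0.918 with the WT-labelled one. All 4 scanner arrays correlated most with the table column of the KO-labelled challenged array, at 0.919 to 0.923. Levels are on the log2 scale, and where 4 levels of a gene are given in a row their order is WT-labelled control, KO-labelled control, WT-labelled challenged and KO-labelled challenged. A pair of control levels has the WT-labelled array first. In the scanner files a level is relative to the array's 75th percentile, which lay at intensities of 1986 and 1834 on the control arrays. In the table it is the log2 of the deposited signal, whose 75th percentile is about 1.00. Probes above background made up 80.9% and 80.4% of the scanner probes on the controls, and 81.5% and 79.7% of the table's. Alveolar markers were above background for 19 of 20 genes by the scanner and for 20 of 20 in the table. Their levels differed between the sources. In the WT-labelled control the median level of measured alveolar genes was 0.94 by the scanner and 4.27 in the table. Endothelial genes had medians of -2.77 and 3.07 there, and smooth muscle genes -3.40 and 0.27. Ciliated genes lay the other way, at 1.96 and -0.51, as did airway basal and squamous genes, at -1.20 and -3.80. The lung marker Sftpc, surfactant protein C of alveolar type II cells, had control levels of -1.33 and -0.71 on the scanner arrays and 6.92 and 6.96 in the table. The sources were normalised separately, although both have a 75th percentile near 0 on the log2 scale, and the club cell protein Scgb1a1 did not show such a gap (7.84 and 7.89 by the scanner, 6.76 and 6.81 in the table). Whether both sources come from the same RNA is not known. All 4 arrays lay on 1 slide. The error given with a scanner difference comes from the scanner software's spot errors and covers reading only, with a median of 0.20 over genes. The table gives no error, and probes spotted 5 or more times gave differences with a median SD of 0.042 between spots there and 0.040 in the scanner files.

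Pla2g3 itself was higher on the array labelled Pla2g3-/-. The table gave -4.66, -0.20, -4.60 and 0.06. Both KO-labelled arrays lay above both WT-labelled ones, and the control difference was 22.1-fold. Scanner levels were -3.05, 0.14, -2.83 and 1.07, a control difference of 3.19 with a spot error of 0.20. The probe at base 1580 gave 16.2-fold in the table and 4.35-fold in the scanner files in the same direction. A probe for ENSMUST00000044682 lies 0.00617 Mb from the Pla2g3 probes at chr11:3399294-3399353. The files describe its transcript as weakly similar to group III phospholipase A2, and it was singled out after its values were seen. By the scanner it was dim in the WT-labelled control and at least 16.3-fold higher in the KO-labelled one, and 24.9-fold higher in the table. A probe outside the deleted part checks nothing. Whether the probes lie outside the deleted part and whether the labels hold cannot be told apart here, and the reason for the higher signal was not tested. The arrays are called KO-labelled and WT-labelled, and each direction below rests on those labels.

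Of 25333 genes measured in the table, the KO-labelled control was higher by 2-fold or more for 485 (1.91%) and lower for 823 (3.25%). A gene was taken as measured if either control array was above background for it, and counts use its measured difference. Where a dim array set at its bound changes the count of a list, the second count is given beside the first. Counts of list members below are read against these shares, and against 3.59% higher and 2.37% lower in the scanner files. Differences were small for most genes, since 88.9% lay within 1.5-fold and the median was -0.00. They were most frequent among dim genes, where 11.0% of genes passed 2-fold when the genes were cut into 3 equal classes by level, against 3.51% of the middle and 0.983% of the brightest class. Of the genes called, 199 of the higher ones and 341 of the lower ones were above background on 1 control array only. Their measured folds rest on a signal below background. With dim arrays at their bound, 398 genes in all were higher and 605 lower. Among the 114 called genes with several measured probes, 95 had all probes on the same side and 61 had all probes past 2-fold.

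The highest genes of the table were a phosphodiesterase, the alpha-1-antitrypsin family and Pla2g3. Gdpd3, an enzyme that cleaves lysophospholipids and glycerophosphodiesters, had log2 signals of -3.09, 2.94, -3.08 and 2.52. The KO-labelled arrays were about equal to each other and far above the WT-labelled ones, a control difference of 65.2-fold. The scanner files showed no such gap for the same probe, with -0.16 and 0.04 in controls. Serpina1c, which encodes an inhibitor of neutrophil elastase, had -5.60 and -0.46 in controls and -4.97 and -0.32 after challenge, a control difference of 35.4-fold. Serpina1a (32.0-fold), Serpina1e (30.8-fold) and Serpina1d (23.8-fold) were higher as well. Their other probes differed in the same direction, by 2.94-fold for the base 1165 probe of Serpina1e, 6.39-fold for the base 1405 probe of Serpina1a and at least 16.4-fold for the base 692 probe of Serpina1d, which was dim in the WT-labelled control. Scanner differences of these 4 genes in controls lay between 0.00 and 0.49 on the log2 scale. Serpina1 genes are best known as products of the liver, and of 16 liver genes the table measured, 2 passed 2-fold upward, Serpina1a itself and the fibrinogen chain Fgg (1.06), and none was lower, with a median of 0.15.

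Psca, a surface protein of epithelia, was 21.6-fold higher in the table, Cryaa, a small heat shock protein of the lens, 14.9-fold, and the matrix protein Tnn 11.7-fold. For each of these 3 genes both KO-labelled arrays lay above both WT-labelled ones. The remaining highest genes rested on the KO-labelled control alone. Awat1, an enzyme of wax ester synthesis, had -6.22 and -1.89 in controls but -4.98 and -5.37 after challenge. Cxcr1, a receptor for neutrophil chemokines, had -4.10 and -0.51 in controls and -4.26 and -3.89 after challenge. The secretoglobin Scgb1b7 had -8.36 and -5.12 in controls and -6.76 and -8.17 after challenge. On the KO-labelled control these 3 genes stood apart from the other 3 arrays, which did not separate by label. Above background in the KO-labelled control only were Col6a4, a collagen VI chain (at least 30.9-fold higher), the methyltransferase Bhmt2 (at least 28.9-fold) and Elobl (at least 19.8-fold). The second Col6a4 probe was at least 1.53-fold higher.

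The lowest gene of either source was Trim12a, one of the mouse relatives of the antiviral factor TRIM5. It had 1.76, -8.10, 1.73 and -8.16 in the table, a control difference of -9.86. The KO-labelled arrays lay at the edge of background and the WT-labelled arrays among well-expressed genes. Its scanner levels were -0.42, -8.29, -0.79 and -9.47, with both KO-labelled arrays below background, so it was at least 157-fold lower. The probe at base 739 was 72.0-fold lower in the table and at least 16.0-fold lower in the scanner files. A neighbouring probe named ENSMUST00000138557, described in the files as a predicted Trim5 transcript and singled out after its values were seen, was below background in the KO-labelled control and at least 61.5-fold lower in the table and 7.23-fold by the scanner. Of the 10 measured genes of this Trim cluster, 3 were at least 2-fold lower in the table and 2 in the scanner files, and none was higher in either. Trim34a was -2.66 and -1.51 by its brighter probe, although its other probe gave -0.01 and -0.24.

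Among the other lowest genes of the table, Samd4, an RNA-binding repressor of translation, had -0.32 and -4.89 in controls and -0.41 and -5.10 after challenge, 23.8-fold lower in the KO-labelled control. Syt15, of the synaptotagmin family, differed by -3.91, and its second probe was at least 11.7-fold lower. Tmem221 was 11.3-fold lower, Unc93a2 10.1-fold and Camk2b, a calcium- and calmodulin-dependent kinase, 9.85-fold. Oosp1 (7.93-fold), the primase subunit Prim2 (7.59-fold), Ankrd63 (7.48-fold), Fam25c (7.13-fold) and the glycosyltransferase B3gnt3 (7.07-fold) followed. For these 10 genes both KO-labelled arrays lay below both WT-labelled arrays. Of the 2 other probes of Unc93a2, one gave -0.45 and one was below background in both controls. Cyp1a1, a detoxifying enzyme induced through the dioxin receptor, differed from this pattern. Its levels were 0.60 and -4.06 in controls and -3.70 and -3.29 after challenge, so the WT-labelled control alone was high. Of the 16 measured genes of the dioxin and cytochrome P450 list it was the only one past 2-fold. The growth factor gene Gdf2 (at least 11.8-fold lower), Ttll2 (at least 10.1-fold) and Apol7d (at least 9.60-fold) were above background in the WT-labelled control only.

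**Figure D1:**
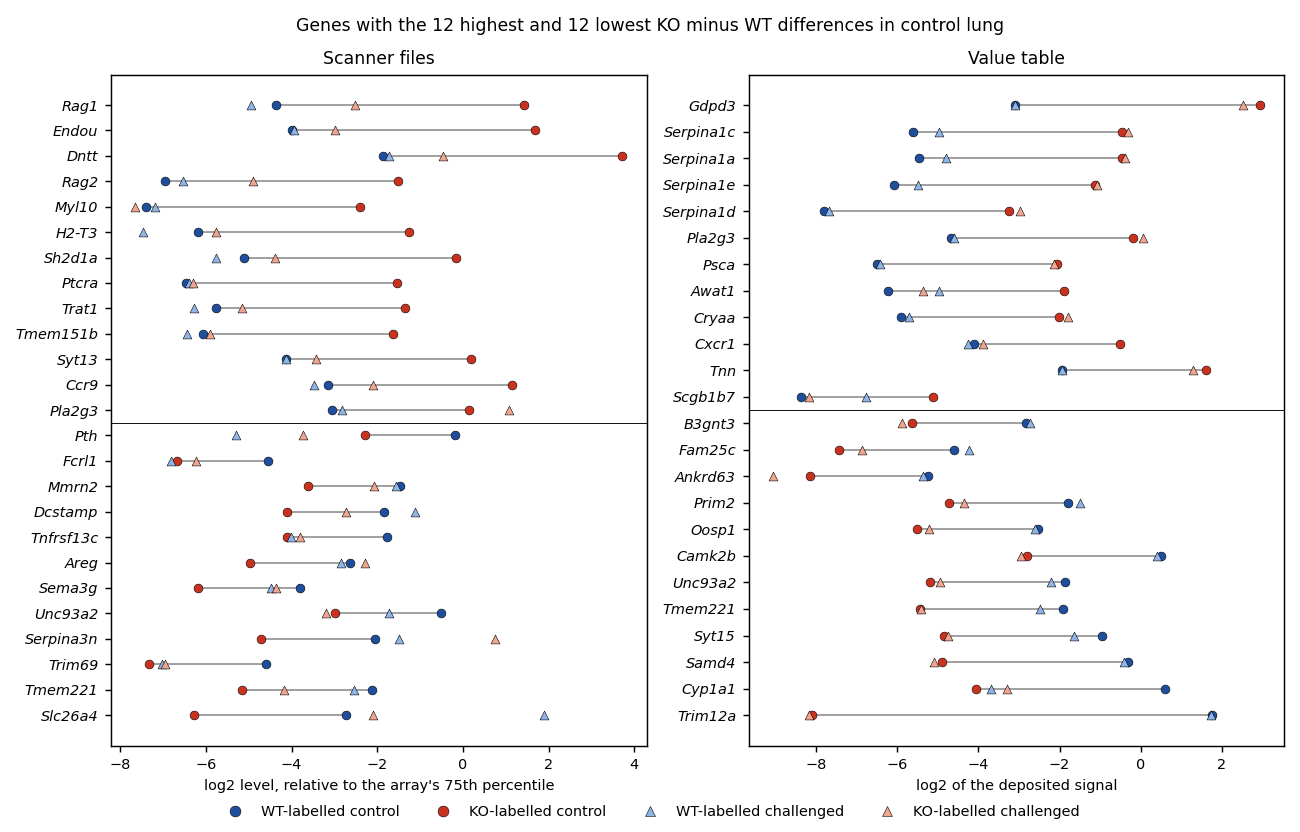
Log2 levels of the 12 highest and 12 lowest genes by KO-labelled minus WT-labelled control, with Pla2g3, in the scanner files (left) and the value table (right); circles are control arrays, triangles challenged arrays, and a grey line joins the 2 controls. In the table most KO-labelled points sit together, as for Gdpd3 at 2.94 and 2.52. In the scanner files the highest genes stand at least 2-fold above every other array on the KO-labelled control. Rag1 is at 1.43 there, and its KO-labelled challenged array (-2.51) lies above both WT-labelled ones (-4.37 and -4.95).

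Of 25508 genes measured in the scanner files, 916 were higher by 2-fold or more in the KO-labelled control (3.59%) and 605 were lower (2.37%). Their median difference was -0.03, and 86.6% of genes lay within 1.5-fold. As in the table, dim genes passed most often, 11.9% of the dimmest class against 1.56% of the brightest. With normexp background correction, an offset of 50 and quantile normalization together, 357 genes were higher and 108 lower. Of the called genes, 286 of the higher and 280 of the lower ones were above background on 1 control array only.

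Genes of developing T cells led the scanner files. Rag1, a subunit of the recombinase that assembles antigen receptor genes, had -4.37, 1.43, -4.95 and -2.51, a control difference of 5.80 with a spot error of 0.21 (55.6-fold). Its second probe was below background in the WT-labelled control and at least 22.8-fold higher in the KO-labelled one. Dntt, the enzyme that adds untemplated bases to receptor junctions, had -1.87, 3.72, -1.72 and -0.45. Rag2 was 43.4-fold higher, the pre-T cell receptor chain Ptcra 30.3-fold, the thymus leukaemia antigen H2-T3 30.6-fold and Endou 50.4-fold. All 6 stood apart on the KO-labelled control, at least 2-fold above each of the other 3 arrays. So did the other 6 of the 12 highest genes: the signalling adaptors Sh2d1a (30.6-fold) and Trat1 (21.5-fold), Ccr9, the receptor that draws T cell precursors to the thymus (19.6-fold), Myl10 (31.7-fold), Tmem151b (21.4-fold) and Syt13 (4.32 on the log2 scale). In the table none of these 12 genes was at least 2-fold higher by a probe above background on both control arrays. Its Rag1 and Rag2 probes were below background on all 4 arrays, Dntt had -4.03 and -4.63 in controls, and Ptcra was below background in both controls. H2-T3 was above background there in the KO-labelled control only, at least 2.03-fold higher, and Trat1 (-1.14) and Myl10 (at least 4.33-fold) were lower. Ccdc194 (at least 17.7-fold), Spo11, which cuts DNA in meiosis (at least 17.2-fold), and Art1 (at least 10.8-fold) were over background on the KO-labelled control array but not on the WT-labelled one.

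Of 20 immature thymocyte genes on the scanner arrays, 16 passed 2-fold upward in the KO-labelled control and none was lower, with a median difference of 3.82, where the median over all measured genes was -0.03. In the challenged pair 8 of the 20 were higher and the median was 0.92. Mature T cell genes followed, with 12 of 21 higher, 1 lower and a median of 2.06. Examples are Lck, the kinase of the T cell receptor (0.07 and 3.73 in controls), the adaptor Lat (-2.29 and 1.05) and the receptor subunit Cd3d (-1.44 and 1.89). Cell cycle genes passed 2-fold upward for 15 of 29, or 14 with dim arrays at their bound, with medians of 1.03 and 0.99. They included the topoisomerase Top2a (1.59) and the nucleotide reductase subunit Rrm2 (1.54), while the mitotic kinase Aurkb, dim in the WT-labelled control, was at least 1.44-fold higher. Genes of the thymic epithelium had a median of 0.15 with 2 of 14 higher, one of them Foxn1, the regulator of thymic epithelial cells, at 2.01. In the challenged pair of the scanner files the cell cycle median was 0.62, with 0 genes higher and 1 lower. The table did not show these increases in controls. Of its 27 measured cell cycle genes 0 passed 2-fold, 25 lay below 0 and the median was -0.30. Of its 17 measured immature thymocyte genes 1 was higher and 2 were lower, with a median of -0.46. In RNA of mixed cells, more cells of a type and more RNA per cell cannot be told apart. Whether tissue taken with the lung has a part in these differences was not tested.

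B cell genes lay the other way in the scanner files, with 7 of 20 at least 2-fold lower, 2 higher (1 with dim arrays at their bound) and a median of -0.87. Ms4a1, a surface protein of B cells, had 0.50, -0.98, -1.06 and -0.81. Cd79a, a signalling chain of the B cell receptor, had -0.80, -2.31, -2.19 and -2.17. For both genes the WT-labelled control was the high array, and the challenged arrays lay near the KO-labelled control. The plasma cell receptor Tnfrsf17 was below background in the WT-labelled control and at least 1.34-fold higher in the KO-labelled one. Tnfrsf13c, the receptor for the B cell survival factor BAFF (-2.33), and Fcrl1 (-2.13) were among the 12 lowest genes of all and also rested on the WT-labelled control, although the second probe of Tnfrsf13c gave -1.17.

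The lowest gene of the scanner files above background on both arrays was Slc26a4, pendrin, an anion exchanger of secretory epithelia. It had -2.74, -6.28, 1.88 and -2.09, which is 11.7-fold lower in the KO-labelled control. Each KO-labelled array lay below the WT-labelled array of its treatment. The table gave 0.91 and 1.37 in controls, a small difference in the other direction. Tmem221 was 8.22-fold lower, Trim69 6.70-fold, Unc93a2 5.56-fold, the endothelial semaphorin Sema3g 5.18-fold (-0.47 on its second probe), and Areg, a ligand of the epidermal growth factor receptor, 5.09-fold. Dcstamp, a fusion protein of osteoclasts and macrophages, was 4.78-fold lower and the endothelial matrix protein Mmrn2 4.41-fold. Of 19 endothelial genes, 5 were at least 2-fold lower (2.37% of all genes were) and 1 higher (3.59% of all genes), with a median of -0.44. The angiopoietin co-receptor Tie1 (at least 5.31-fold), the tight junction protein Cldn5 (-1.44) and von Willebrand factor, Vwf (-1.16), were among the lower ones and Icam2 was 1.23 higher. The table gave none of 20 endothelial genes past 2-fold and a median of 0.11. Serpina3n (-2.67), an acute phase protease inhibitor, and Pth (-2.11), the parathyroid hormone gene, completed the 12 lowest. Zic2 (at least 8.49-fold lower) and Glycam1 (at least 8.42-fold) were below background in the KO-labelled control and above it in the WT-labelled one.

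Antigen receptor chains, which the ranking of genes left out, gave the densest runs of differences along the genome. Probes described as immunoglobulin chains were lower on the table's KO-labelled control. Of 59 measured kappa chain probes between 67560270 and 70676751 of chromosome 6, 53 were at least 2-fold lower and none was higher, with a median of -2.26. Of 50 heavy chain probes between 114496985 and 117219055 of chromosome 12, 44 were lower and none was higher, with a median of -2.69. The challenged pair had medians of -2.43 and -2.60, and 49 kappa and 40 heavy chain probes passed 2-fold the same way in both treatments. These probes read similar gene segments of 2 loci, so they are not independent. Of 20 measured B cell and plasma cell genes of the table, 3 were at least 2-fold lower and none was higher, with a median of -0.54. The 3 were Jchain, Mzb1 and Tnfrsf17. Jchain, which joins antibody polymers, had 4.69, 2.51, 4.53 and 2.31, a control difference of 4.51-fold. Mzb1, a chaperone of antibody secretion, had 0.80, -0.75, 0.89 and -0.36, and Tnfrsf17 -2.84, -4.15, -2.69 and -3.83. For all 3 genes both KO-labelled arrays lay below both WT-labelled ones. Sdc1, a surface proteoglycan of plasma cells and epithelia, had 1.48, 1.53, 1.48 and 1.34, with no such gap. General B cell genes differed by less than 2-fold in the table: Ms4a1 was -0.46, Cd79a -0.56 and Cd79b -0.37. The immunoglobulin probes of the scanner files did not show this, with 9 of 47 kappa probes lower (7 with dim arrays at their bound) and 2 higher, 6 of 38 heavy chain probes higher and none lower, and Jchain 1.09 higher.

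T cell receptor probes behaved differently in the sources. All 22 beta chain probes measured by the scanner on chromosome 6 were at least 2-fold higher in the KO-labelled control (median 3.44, lowest 1.54), and 21 of 42 alpha and delta chain probes of chromosome 14 were higher with 1 lower (median 1.03). With dim arrays at their bound 15 of the 42 were higher and the median was 0.68. In the challenged pair their medians were 0.61 and 0.01. The table had 5 of 22 beta chain probes lower (4 with dim arrays at their bound) and none higher, with a median of -0.68, and none of 38 alpha and delta chain probes passed 2-fold. Mature T cell genes of the table had a median of -0.69 with 3 of 22 lower and none higher. The inhibitory receptor Tigit (-1.50), Trat1 (-1.14) and Foxp3, the regulator of suppressive T cells (-1.12), were the 3. Dendritic cell genes had a median of -0.64 with 6 of 18 lower, among them the chemokines Ccl17 (1.23 and -0.49 in controls) and Ccl22 (-6.35 and -7.93), the receptor Xcr1 (-6.17 and -7.59) and the integrin Itgae (-3.72 and -5.05). The challenged medians of the T cell and dendritic cell lists were -0.62 and -0.46.

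**Figure D2:**
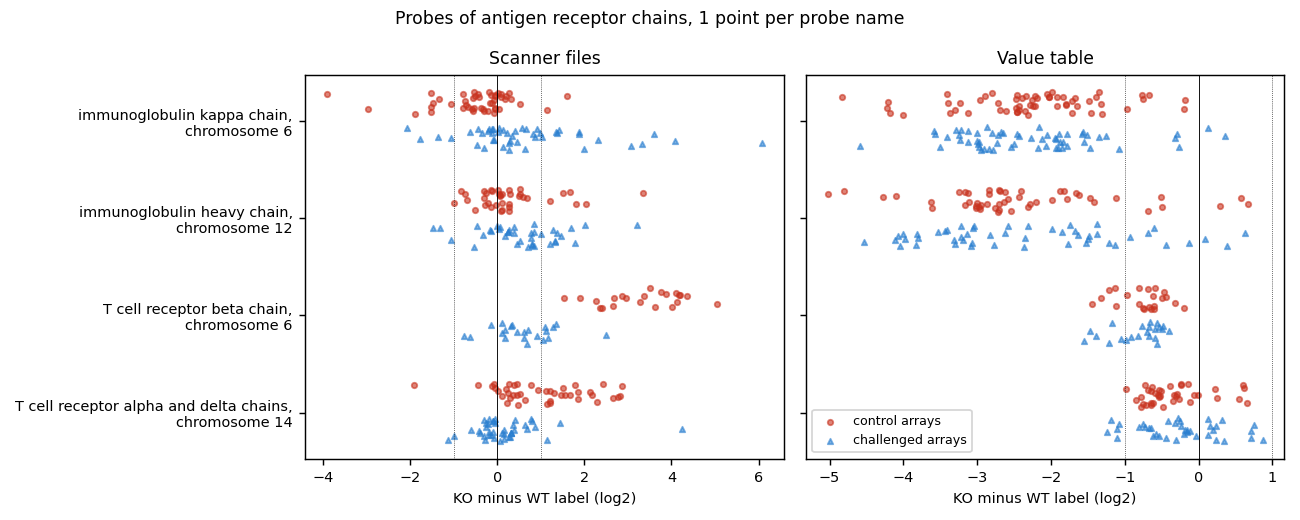
KO-labelled minus WT-labelled log2 difference of each measured antigen receptor probe name, by chain, in the scanner files (left) and the value table (right); red circles are the control pair, blue triangles the challenged pair, and dotted lines mark 2-fold. Immunoglobulin probes of the table lie mostly below -1 in both treatments (control medians -2.26 and -2.69), and T cell receptor beta probes of the scanner files lie above 1 in controls (median 3.44).

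For the lipid mediator genes around Pla2g3, here and in the next paragraph, counts stand beside the shares of all measured genes. Those shares were 3.59% higher and 2.37% lower by the scanner, and 1.91% and 3.25% in the table. Of 12 measured secreted phospholipases A2, Pla2g3 was the only one past 2-fold in either source, and the list medians were -0.03 (scanner) and 0.01 (table). Of 18 intracellular enzymes measured by the scanner 1 was higher and 0 were lower, with a median of -0.11. The higher one was Pla2g4c, a calcium-independent cytosolic phospholipase A2, with scanner levels of -6.86, -3.30, -2.83 and -0.35. In the table it was 0.62 higher in the KO-labelled control, at levels of -7.88 and -7.26. None of the 19 intracellular enzymes passed 2-fold in the table, where their median was 0.11. Lpcat2, which makes platelet-activating factor in inflammatory cells, was the one gene of these lists besides Pla2g3 to differ alike in both sources. Its levels were -4.56 and -2.78 in the controls of the table (3.44-fold) and -2.04 and -0.29 in those of the scanner files (3.37-fold), and the challenged pairs gave 1.76 and 1.73 on the log2 scale.

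Prostaglandin genes had 3 of 19 higher (2 with dim arrays at their bound) and 2 lower in the scanner files and none past 2-fold in the table, with medians of 0.06 and 0.09. The thromboxane receptor Tbxa2r (2.60), and the prostaglandin E receptor Ptger1 (2.39) were higher in the scanner files, and Ptger3, dim in the WT-labelled control, was at least 1.45-fold higher. The prostaglandin D receptor Ptgdr (-1.17) and the inducible cyclooxygenase Ptgs2 (-1.16) were lower, and Ptgs2 was 1.62 higher in the challenged pair. Leukotriene genes had none of 15 past 2-fold by the scanner and 1 of 16 in the table, Cysltr2, a receptor for cysteinyl leukotrienes. It had -4.77 and -6.89 in the table's controls and -4.76 and -6.59 after challenge, lower in both KO-labelled arrays, while its scanner levels were -6.73 and -5.78 in controls. Lysophosphatidic acid and platelet-activating factor genes had medians of 0.02 and 0.08. Of 18 measured in each source, 2 were higher by the scanner and 1 in the table, and none was lower. Mast cell and basophil genes had 1 of 19 past 2-fold by the scanner and none once dim arrays were at their bound, since the basophil protease Mcpt8, dim in the WT-labelled control, was only shown to be at least 1.28-fold higher. None of 18 passed in the table, where Mcpt4 (0.89) and Cpa3 (0.67) were the largest. Their medians were -0.02 and 0.01.

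Type 2 genes and chemokines differed in part. Over all measured genes, 3.59% were higher and 2.37% lower by the scanner, and 1.91% and 3.25% in the table. By the scanner 4 of 15 type 2 genes were higher, led by Gata3, a transcription factor of both Th2 cells and thymocytes (3.08), with the interleukin 25 receptor Il17rb (1.51), and Areg was lower. The other genes of the list leaned slightly down, since 11 of the 15 lay below 0 and the median was -0.12. The table's median was -0.15, with 14 of 18 below 0. In the table none of 18 was higher, and Il21 (at least 2.82-fold) and Il10 (at least 2.49-fold) were lower and below background in the KO-labelled control. Chemokines and their receptors had a median of -0.37 in the table, with 10 of 29 lower and 3 higher. Cxcl9 had -1.09, -3.83, 0.18 and -1.78, lowest on the KO-labelled control. Cxcl9 (-2.74), Ccl1 (-2.64), Ccl8 (-1.82) and Cxcl10 (-1.79), ligands that draw T cells and monocytes, were lower, and the neutrophil chemokine Cxcl2 was 1.90 higher. On the scanner arrays 7 of 28 were higher and 1 lower, with Ccr4 (2.26), Cxcl1 (2.16) and Cxcl5 (2.13) at the top, and the median was 0.15. In the challenged pair 20 of this list were higher and none lower by the scanner (median 1.67). The table's challenged pair had 1 higher and 5 lower (median -0.27). Prg2, a granule protein of eosinophils, had -2.09 and -4.54 in the table's controls and -2.10 and -1.87 after challenge, so the KO-labelled control alone was low. It was the only lower one of 15 eosinophil genes measured in the table. There 1 was higher (0 with dim arrays at their bound) and the median was -0.19. By the scanner 1 of 13 eosinophil genes was higher and 0 lower (median 0.02). The acute phase genes Orm2 and Orm1 were higher in both sources, 6.27-fold and 5.37-fold in the table and 4.99-fold and 3.45-fold in the scanner files. For both genes the WT-labelled control lay below the other 3 arrays of its source. Of the acute phase and complement list they belong to, 3 of 22 genes were higher and 1 lower in the table (median 0.06). By the scanner 3 of 21 were higher and 3 lower (median -0.05).

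Heart muscle genes were higher in the KO-labelled control of the table, with 5 of 20 at least 2-fold higher, none lower and a median of 0.69. Heart muscle cells line the large pulmonary veins of mice and are part of dissected lung. Myl7, an atrial myosin light chain, had 0.91 and 2.10 in controls and 1.42 and 1.00 after challenge, and Sln, a regulator of the calcium pump, 1.47, 2.72, 2.25 and 2.14. Nppa, the atrial hormone precursor, was 1.00 higher in controls and -0.96 after challenge. The KO-labelled control was the highest array for these 3, and the challenged median was -0.36. Myh7 differed from them, with 0.88, 2.39, 0.76 and 2.35, high in both KO-labelled arrays. White and brown fat genes moved in the same directions, with 17 of 18 above 0, 1 past 2-fold and medians of 0.29 in controls and -0.32 after challenge. Their part in the heart muscle values was not tested. The scanner files gave 1 of 16 heart muscle genes past 2-fold and a median of -0.07. Alveolar, ciliated, club cell, smooth muscle, ribosomal and mitochondrial lists had control medians between -0.32 and 0.22 in both sources.

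**Figure D3:**
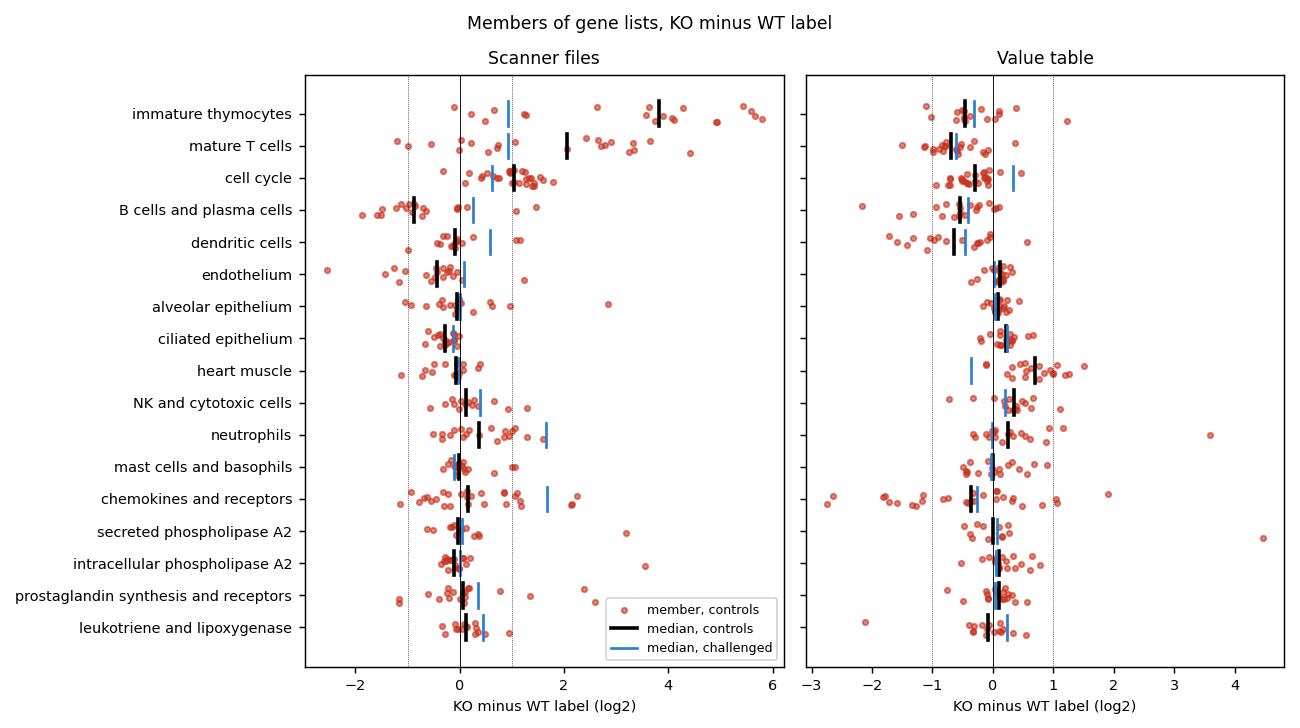
KO-labelled minus WT-labelled log2 difference of the measured members (red points), with the median in controls (black bar) and in challenged arrays (blue bar), for 17 gene lists in each source; dotted lines mark 2-fold. In the scanner files thymocyte and T cell lists lie to the right (medians 3.82 and 2.06) and B cells to the left (-0.87), while in the table T cell and dendritic cell lists lie slightly to the left (-0.69 and -0.64) and heart muscle to the right (0.69).

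The challenged pair is the only other measurement of the same genotype labels, and it shares no array with the control pair. There 1471 of 25279 genes passed 2-fold by the table (5.82%). Of the control calls measured in both pairs, 576 went the same way after challenge, 56.1%, of which 173 were higher and 403 lower, and 58 went the opposite way. Leaving out antigen receptor probes gave 476. By the scanner 2092 of 25634 genes passed 2-fold in the challenged pair (8.16%), and 406 control calls went the same way, 31.5%, with 137 the opposite way. The scanner calls rested more often on 1 array. The KO-labelled control stood at least 2-fold apart from the other 3 arrays for 491 of 1521 called genes (32.3%), 400 of them higher, and the WT-labelled control for 228. The table's numbers were 263 of 1308 (20.1%) and 219.

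**Figure D4:**
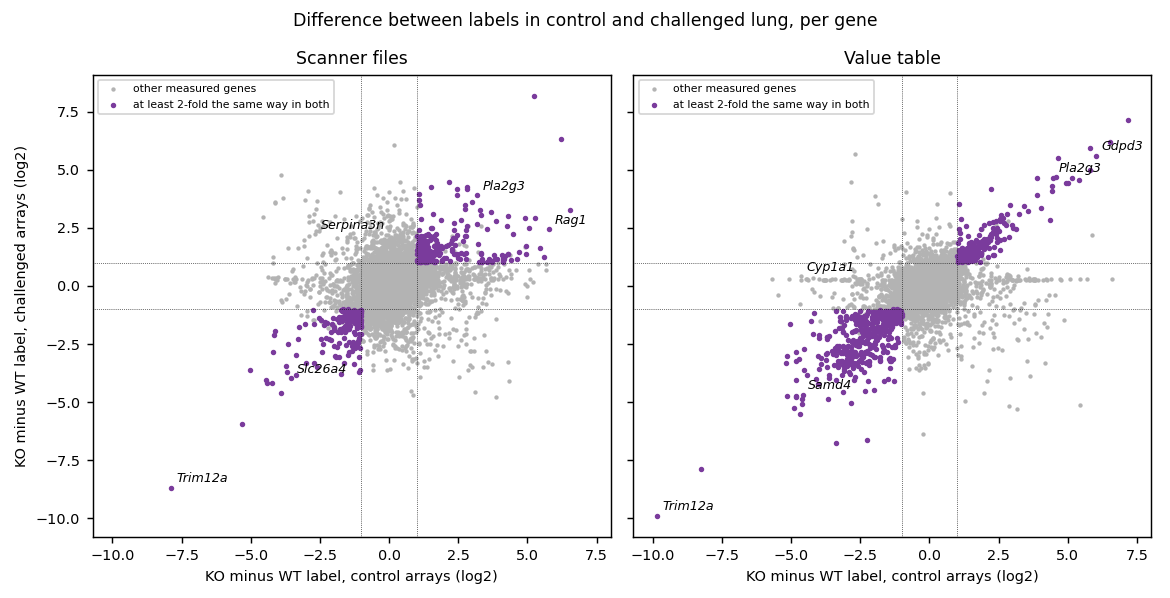
KO-labelled minus WT-labelled log2 difference of each measured gene in the control pair (horizontal) and the challenged pair (vertical) for the scanner files (left) and the value table (right); purple points passed 2-fold the same way in both (406 and 576 genes), and dotted lines mark 2-fold. In the table a diagonal arm runs from Trim12a to Gdpd3, and in the scanner files many genes lie near the horizontal axis, differing in controls only; the flat row of table points just above 0 holds genes dim on both challenged arrays.

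Of 24050 genes measured in both sources, 1114 were called by the scanner (4.63%) and 883 by the table (3.67%). Only 83 were called the same way in both (0.345%), 29 higher and 54 lower, which is 7.45% of the scanner calls and 9.40% of the table's. Another 96 were called in opposite directions, 77 of them higher in the scanner files. With the challenged pairs added, 23 genes passed 2-fold the same way in all 4 differences, 9 higher and 14 lower, of which 17 carry ranked names. Besides Pla2g3, Trim12a, Trim34a, Lpcat2, Tmem221, Unc93a2 and Cryaa these are the following 10. Zfp963, a zinc finger gene, had -4.54 and -1.77 in the table's controls and -4.43 and -2.08 in the scanner files. Ocel1 was 4.66-fold and 3.26-fold higher (table, then scanner files), but its second probe gave -2.42 and -2.91, so its probes disagree in direction. Calr3, a calreticulin of the testis, was 3.65-fold and 2.99-fold higher with both probes alike, and Adcy1, an adenylyl cyclase, 4.88-fold and at least 5.52-fold. On the lower side, B3gnt3 was 7.07-fold and 3.06-fold lower, Serpina9 6.89-fold and 2.97-fold, and Pttg1, the securin of dividing cells, 3.49-fold and 2.79-fold. Tmem212 (4.05-fold and 2.03-fold), the carboxylesterase Ces1b (3.68-fold in the table, with scanner levels of -2.14 and -4.14) and Eddm3b (at least 2.48-fold, and 2.14-fold) completed them.

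**Figure D5:**
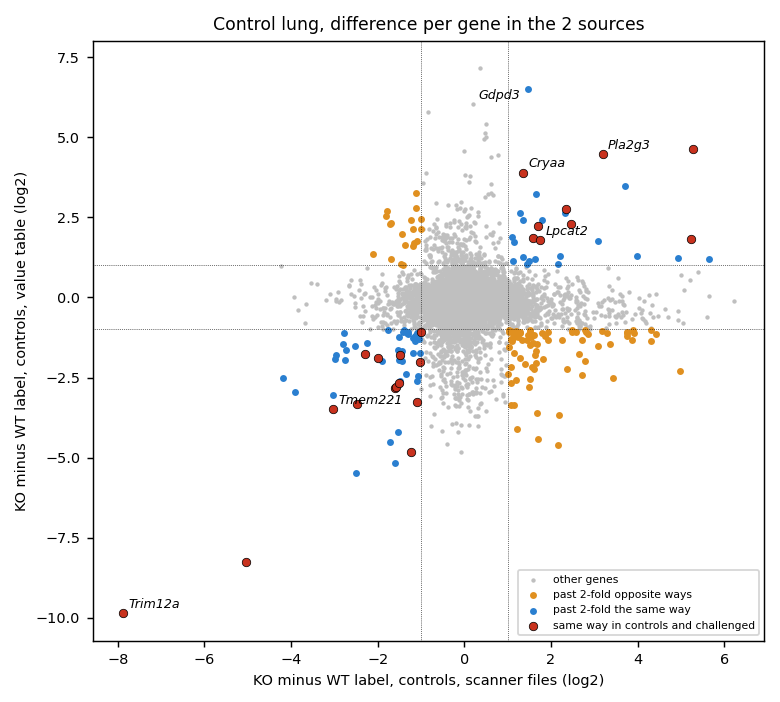
KO-labelled minus WT-labelled control difference of each gene measured in both sources, scanner files (horizontal) against value table (vertical), log2; blue points passed 2-fold the same way, orange points opposite ways (96 genes), and red points the same way in controls and challenged arrays of both sources (23 genes). Most genes past 2-fold in one source lie near 0 in the other, as Gdpd3 does, at 6.03 in the table and 0.20 in the scanner files.

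Several of the genes that differed in all 4 comparisons are neighbours. On chromosome 8, Zfp963, Ocel1, Tmem221, B3gnt3 and Calr3 lie within 2.69 Mb (72265659 to 74955366), a stretch with 117 measured genes that was bounded by called genes after the values were seen. In it 10 genes were higher and 7 lower in the scanner files, and 4 higher and 13 lower in the table. That is 14.5% in each source, against 5.93% and 5.09% of all positioned genes. Ccdc194, in the same stretch, was at least 17.7-fold higher in the KO-labelled control of the scanner files and -0.11 in the table. Serpina9 lies 0.232 Mb from Serpina1d on chromosome 12, and in the table all 7 measured genes from the one to the other passed 2-fold, 5 higher and 2 lower, whereas 1 of 8 did in the scanner files. These bounds were also called genes chosen after the values were seen. Within 5 Mb of Pla2g3, 7 of 102 measured genes were past 2-fold in the scanner files (6.86%, against 5.93% of all positioned genes) and 7 of 99 in the table (7.07%, against 5.09%). Adcy1, 3.68 Mb away, was the only gene with a ranked name among them in both sources, and Camk2b, 2.48 Mb away, was among them in the table. Inpp5j, whose probe lies 0.00126 Mb from those of Pla2g3, differed by -1.73 by the scanner and -0.12 in the table. It was singled out after its values were seen. Among chromosomes with over 100 measured genes, calls were most frequent in the table on chromosome 12 (13.5%), 14 (10.5%) and 6 (9.07%). The first and last of these hold the immunoglobulin loci. In the scanner files calls were most frequent on chromosome 14 (11.2%), with 72 higher and 41 lower. T cell receptor alpha and delta chain probes gave 21 of those higher calls and 1 of the lower ones. The table's calls on chromosome 14 were 48 higher and 55 lower, and none of its 38 such probes passed 2-fold. What underlies the other calls of chromosome 14 was not tested.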

How the data were processed

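RNA of 4 lung pools was measured on 1-colour arrays, and the pair of control arrays was compared. The deposited scanner files give an intensity for each spot, read with Agilent Feature Extraction 11.5.1.1, and probe positions on mm9, per the file headers. The deposited value table gives 1 signal for each probe on a linear, uncentred scale; no source used here states its processing. Each array has 44397 spots, 43020 of them no controls, for 39429 probes. Of these, 28751 were named by transcript accession, 2193 by symbol through the supplied RefSeq table (GRCm38) and 8485 keep the file's name.

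From the log2 of each scanner intensity the array's 75th percentile over non-control spots was subtracted, and 19 probes with uneven spots were left out. Table signals were taken to log2. Above background meant Agilent's flag, or more than 5 times the median of 153 negative controls in the table. A gene's probe was the one with the highest mean over the 4 arrays of a source. A call is 2-fold or more. Where 1 array was dim, it was set to the higher of its own value and the lowest signal above background, giving "at least". With 1 array per group there is no test, and precision is limited by their number.

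Named genes are Pla2g3, the 12 highest and lowest per source above background on both controls, 3 bounded ones per direction, those shared by both sources or near Pla2g3, and up to 5 members per list, by size. Other names were chosen after their values were seen. Members, the 49 lists and the rules were chosen with earlier results of these data known, and the chain groups of antigen receptor probes, taken from probe descriptions, after the values were seen. Alternatives were quantile normalization, normexp (limma 3.58.1 in R 4.3.3, offset 50), centring on detected probes, other filters, probe rules and folds. Calls were tested on simulated data, which held spot errors only and no variation between pools, so this checks the calling steps and not the differences. Python 3.11.15, pandas 2.3.3, numpy 2.4.6 and matplotlib 3.10.9 were used. There were 0 other columns of sample values.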

Additional observations from a re-analysis of the deposited data

Results flagged for a closer look

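In the scanner files, 2 of the ranked genes passed 2-fold one way in the control pair and the opposite way in the challenged pair while above background on all 4 arrays. With 1 array per group the difference was not tested. Serpina3n, an acute phase inhibitor of proteases, was -2.67 in controls, with levels of -2.05 (WT-labelled) and -4.73 (KO-labelled), and 2.24 after challenge, with levels of -1.49 and 0.74. In the table it was 0.35 and 0.92. Pth, the parathyroid hormone gene, was -2.11 in controls, with levels of -0.18 and -2.29, and 1.56 after challenge, with levels of -5.30 and -3.75. In the table it was below background on 3 of the 4 arrays. Whether parathyroid or thyroid tissue taken with the lung has a part in the values of Pth was not tested, and 2 of 15 measured genes of that list, Slc26a4 and Pth, were at least 2-fold lower in controls and none was higher.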

How the results depend on the processing

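No paired analysis was possible because each group has 1 array, and for the same reason no array could be left out. Quantile normalization and the mean of a gene's probes, wherever run, kept the counts within 1.5 times their values, as did centring on detected probes and the median of probes, run on higher and lower counts only. Pla2g3 stayed between 2.66 and 3.23 (scanner files) and between 4.24 and 4.52 (table). Other rules moved the counts. At 1.5-fold the scanner files gave 1769 higher and 1652 lower genes, 1185 of the same direction after challenge, and 941 higher and 1872 lower genes by the table, 1133 of the same direction, with 345 shared by both sources. At 3-fold these were 448, 248 and 109, then 269, 457 and 313, with 30 shared. With both controls above background, 325 scanner genes were lower, 286 table genes higher and 482 lower, and 43 were shared. Without a filter 951 scanner genes were lower, and 745 table genes higher and 1276 lower. Normexp with an offset of 50 and quantile normalization gave 357 higher and 108 lower scanner genes, so 76.8% of calls were higher in place of 60.2%. A dim array set to its lowest signal above background, chosen after seeing the data, gave 821 higher and 485 lower scanner genes and 398 and 605 in the table. Of 336 list medians under alternatives, 16 changed sign, all from a median of size 0.12 or less. Only 3 moved by 0.25 or more, thymocytes to 3.11 and B cells to -0.61 with normexp and quantile normalization, and secreted phospholipases to 0.31 with the mean of probes, all in the scanner files. Calls were densest among the dimmest genes, where signal is closest to background.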
